A study of Mus musculus with 3 samples.

Results

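Definitive red blood cells of the embryonic thymus were described from droplet RNA profiles of dissociated thymic lobes at embryonic days 13 to 13.5 (E13–E13.5). There was 1 library (10x Genomics) for each of 3 genotypes on the C57BL/6 strain: wild type (WT, the control), Tbx1neo2/neo2 and Foxn11089/1089. Tbx1neo2 carries a neomycin cassette in an intron of *Tbx1*, a T-box factor of the pharyngeal arches and pouches, and Foxn11089 carries a small in-frame deletion in *Foxn1*, the master regulator of thymic epithelium. All 3 libraries came from lobes dissociated with trypsin, and the number of embryos pooled in each is not given in the sources used here, so every difference between genotypes below compares single libraries and has no replicate check. A cell was a red blood cell when the *Hba* and *Hbb* genes held at least 50% of its unique molecular identifiers (UMIs, 1 per captured RNA molecule), and it was definitive when its summed *Hbb-bs* and *Hbb-bt* UMIs were at least those of *Hbb-y* and *Hbb-bh1*. The members were thus chosen by their globin counts, and globin values that follow from this choice are given as description only.

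This rule gave 1465 definitive red blood cells among 23220 cells kept out of 24616 barcodes, which is 6.31% of the kept cells. The WT library held 158 of 5932 kept cells, the library labelled Tbx1neo2/neo2 held 242 of 5516 and the Foxn11089/1089 library held 1065 of 11772. The other 1286 globin-rich cells, with more *Hbb-y* and *Hbb-bh1* than adult UMIs, were primitive (183, 121 and 982 in the same order), and they served as the comparison. Values in triplets below follow this order of libraries.

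The mouse makes red blood cells in 2 waves. Primitive erythrocytes arise in the yolk sac, enter the circulation with a nucleus and carry embryonic globins, namely the beta-type chains of *Hbb-y* and *Hbb-bh1* and the zeta chain of *Hba-x*. Definitive erythrocytes are made in the fetal liver at midgestation, lose their nucleus before they leave it and carry the adult chains of *Hbb-bs*, *Hbb-bt*, *Hba-a1* and *Hba-a2*. Their blood-borne forms retain only RNA made earlier, so their transcripts are a remnant of the late erythroblast.

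The beta-type genes lie side by side on the minus strand of chromosome 7 in GRCm38 (GENCODE annotation), in the transcribed order *Hbb-y* (ENSMUSG00000052187; 103851749 to 103853216), *Hbb-bh1* (103841637 to 103843164), *Hbb-bh2* (103839124 to 103840520), *Hbb-bs* (ENSMUSG00000052305; 103826534 to 103828096) and *Hbb-bt* (ENSMUSG00000073940; 103812524 to 103813996). The alpha-type genes lie on the plus strand of chromosome 11, with *Hba-x* at 32276400 to 32278116 ahead of *Hba-a1* (32283511 to 32284465) and *Hba-a2* (32296489 to 32297298). The 120 bases before the start of 3 of the 4 genes that the rule compares are shown, since these genes define the class. They are from RefSeq (GRCm38.p6), whose starts for these genes lie inside the GENCODE spans, and capitals mark CACCC and CCAAT on either strand, the letters of the CACCC and CCAAT boxes known from beta-globin promoters. The windows are chr7:103827929-103828048 for *Hbb-bs*, chr7:103813924-103814043 for *Hbb-bt* and chr7:103853208-103853327 for *Hbb-y*, each read on the minus strand.
Hbb-bs: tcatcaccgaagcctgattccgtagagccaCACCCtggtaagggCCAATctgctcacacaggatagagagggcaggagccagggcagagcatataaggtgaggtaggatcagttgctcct
Hbb-bt: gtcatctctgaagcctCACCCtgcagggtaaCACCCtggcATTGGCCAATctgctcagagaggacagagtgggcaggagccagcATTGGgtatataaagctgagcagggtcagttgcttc
Hbb-y: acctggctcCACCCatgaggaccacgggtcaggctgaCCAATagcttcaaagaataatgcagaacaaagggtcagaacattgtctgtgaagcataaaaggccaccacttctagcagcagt

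In *Hbb-bs* CACCC began 90 bases and CCAAT 76 bases before the start. *Hbb-bt* had CACCC at 104 and 89 bases and CCAAT at 75 bases on its own strand, with further CCAAT on the opposite strand at 80 and 36 bases, the first of them abutting the one at 75. *Hbb-y* had CACCC at 111 and CCAAT at 83 bases. Of 32851 promoter windows of the same length, 31.7% held CACCC and 21.3% held CCAAT on either strand. The adult and the embryonic genes thus shared these letters, and the matches describe the sequence only. The table used here held no window for *Hbb-bh1*.

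The deposited counts comprised 82936619, 137498422 and 204655055 UMIs in 6410, 5759 and 12447 barcodes. Cells that were not globin-rich held 114, 656 and 1093 *Tbx1* UMIs, or 1.46, 5.07 and 6.35 counts per 1000000 non-globin UMIs (CPM). The targeted gene was thus not lower in the Tbx1neo2/neo2 library, and that genotype is written as a label throughout. These cells were pooled though their make-up differed between libraries, and the authors state that the embryonic thymus does not express *Tbx1*. The low counts therefore cannot check the genotype. *Foxn1* stood at 40.1, 36.5 and 89.8 CPM in the same cells, and the deletion in Foxn11089 removes too little sequence for its level to check the label. The WT library stood apart in *Gm42418*, a locus that overlaps ribosomal RNA sequence, at 67324 CPM in definitive cells against 1166 and 1303, and at 70526 CPM in primitive cells against 1576 and 1478. Between 17 and 28 barcodes were shared by each pair of libraries, and none was a definitive cell in both.

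Definitive cells were a larger share of the kept cells in the Foxn11089/1089 library than in WT, and in the library labelled Tbx1neo2/neo2 only where cells with few genes were left out. With the minimum of 200 genes they made up 2.66% of kept cells in WT (95% exact binomial interval 2.27 to 3.11), 4.39% (3.86 to 4.96) in the library labelled Tbx1neo2/neo2 and 9.05% (8.53 to 9.58) in the Foxn11089/1089 library. These intervals, like all others here, cover counting error only. The ratio to WT was 1.65 (1.34 to 2.03) and 3.40 (2.87 to 4.04). Without that minimum, a setting added after the counts had been seen, the shares were 4.86%, 4.71% and 10.8%, and the ratios fell to 0.970 (0.819 to 1.15) and 2.21 (1.95 to 2.52). With minimums of 1000 UMIs and 400 genes the shares were 0.589%, 3.68% and 3.95%, and the ratios 6.25 and 6.70. Primitive cells held 3.08%, 2.19% and 8.34% of the kept cells, so that the Foxn11089/1089 library had more of both classes. Free globin RNA, judged by the median globin share of the remaining cells, was 0.0228%, 0.0302% and 0.144%. How much blood each dissection carried over was not tested.

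Among globin-rich cells alone, which takes the amount of blood out of the comparison, 46.3% were definitive in WT (40.9 to 51.8), 66.7% in the library labelled Tbx1neo2/neo2 (61.6 to 71.5) and 52.0% in the Foxn11089/1089 library (49.8 to 54.2). The library labelled Tbx1neo2/neo2 had the highest of the 3 shares here, but the order turned with the choice of cells. It was 98.7%, 77.6% and 62.9% without cells of mixed globin (an adult share between 10% and 90%), which left 2 primitive cells in WT, and 40.3%, 58.8% and 32.7% with 1000 UMIs and 400 genes, where the Foxn11089/1089 library was below WT. The minimum of 200 genes per cell touched these shares, for a reason that was not tested. A further 140, 19 and 227 barcodes met every other condition with fewer than 200 genes, against 47, 1 and 8 primitive ones. Without that minimum the shares were 56.4%, 68.1% and 56.6%.

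The split between the classes was nearly discrete. The adult share of the 4 beta-type genes had a median of 100%, 99.99% and 99.9% in definitive cells, and of 25.7%, 9.59% and 8.91% in primitive cells. The values next to the threshold were 51.2% and 45.6% in WT, 98.0% and 18.4% in the library labelled Tbx1neo2/neo2, and 50.02% and 49.8% in the Foxn11089/1089 library. Only 3, 0 and 10 definitive cells had an adult share under 90%. The lowest globin share of any definitive cell was 53.6%, 50.6% and 50.6%.

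**Figure D1:**
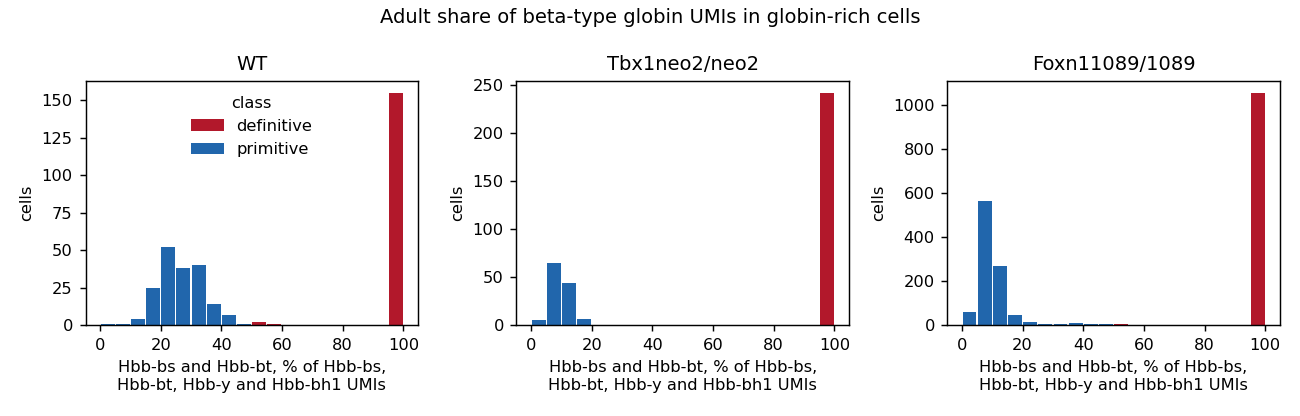
Number of globin-rich cells (y axis) by the share of *Hbb-bs* and *Hbb-bt* among the UMIs of the 4 beta-type genes (x axis, percent, bins of 5), with definitive cells in red and primitive cells in blue, 1 panel per library. Definitive cells pile up next to 100% in each library, and the primitive cells of WT lie farther to the right (median 25.7%) than those of the other libraries (9.59% and 8.91%).

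The members were rich in UMIs and poor in genes. The median definitive cell had 12200, 17974 and 10653 UMIs from 285, 471 and 362 genes, and globins took 92.7%, 90.7% and 91.0% of its UMIs. That left 834, 1648 and 945 non-globin UMIs at the median. The middle 80% of cells spanned 526 to 1988 non-globin UMIs in WT, 767 to 3356 in the library labelled Tbx1neo2/neo2 and 512 to 1973 in the Foxn11089/1089 library. A tail of 4, 8 and 13 members had over 5000 non-globin UMIs, and the deepest reached 12876, 13457 and 10459. The Scrublet score marked 2, 5 and 45 members as likely doublets (1.27%, 2.07% and 4.23% of members), and they were kept. Of all barcodes 5.133%, 4.601% and 9.954% were marked, a share set by the number of barcodes recovered. Members were thus marked less often than all barcodes in each library, and the differences between libraries in these shares are not a measure of the cells.

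Within the adult genes, *Hbb-bs* exceeded *Hbb-bt* in definitive cells, and the order turned in the primitive cells of 2 libraries. *Hbb-bt* held 37.6%, 31.6% and 30.5% of the *Hbb-bs* and *Hbb-bt* UMIs of definitive cells, and 64.0%, 60.8% and 49.4% of those of primitive cells. The rule used only the sum of these genes, so this ratio was free to vary. The middle 80% of single definitive cells lay between 31.7% and 42.3% in WT, 25.2% and 37.4% in the library labelled Tbx1neo2/neo2, and 24.4% and 35.6% in the Foxn11089/1089 library. In WT primitive cells the same range was 41.5% to 92.2%. The pooled values of the classes did not overlap, and no test was made of them.

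The alpha pair showed a like but smaller difference. *Hba-a1* held 55.5%, 55.3% and 54.8% of the *Hba-a1* and *Hba-a2* UMIs in definitive cells and 63.4%, 64.5% and 64.1% in primitive cells. These genes are near-identical copies, as are *Hbb-bs* and *Hbb-bt* over much of their length, and reads that match both may be split or dropped by the counting, so the ratios are uncertain in level. All alpha-type genes together held 28.0%, 29.0% and 29.7% of the globin UMIs of definitive cells. In primitive cells they held 52.9% in WT and 29.8% and 29.4% in the other libraries. The definitive cells of the 3 libraries were therefore alike in the balance of alpha- and beta-type UMIs, while WT primitive cells had less *Hbb-y*, at 33.6% of globin UMIs against 62.7% and 63.0%.

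The embryonic alpha-type gene *Hba-x*, which the class boundary did not use, was nearly gone from definitive cells. Its zeta share of alpha-type UMIs was 0.197% (0.185 to 0.209) in WT, 0.00424% (0.00311 to 0.00564) in the library labelled Tbx1neo2/neo2 and 0.281% (0.275 to 0.287) in the Foxn11089/1089 library, against 16.1%, 20.4% and 24.7% in primitive cells. Nearly all of it sat in the few members with an adult share under 90%, which held 1010 of 1054 *Hba-x* UMIs in WT and 7771 of 8499 in the Foxn11089/1089 library. Members with an adult share of 99% and over had a zeta share of 0.00834%, 0.00431% and 0.0246%. Of the *Hbb-y* and *Hbb-bh1* UMIs that the rule did use, definitive cells had 3018, 476 and 62444 and 512, 878 and 3190. *Hbb-y* was seen in 42.4%, 65.3% and 99.3% of definitive cells, and in 34.5%, 62.1% and 97.7% of the remaining cells, which should lack it. The median cell of these classes had 12200, 17974 and 10653 UMIs against 13678, 21167 and 15537. *Hbb-bh1* exceeded *Hbb-y* only in the definitive cells of the library labelled Tbx1neo2/neo2.

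**Figure D2:**
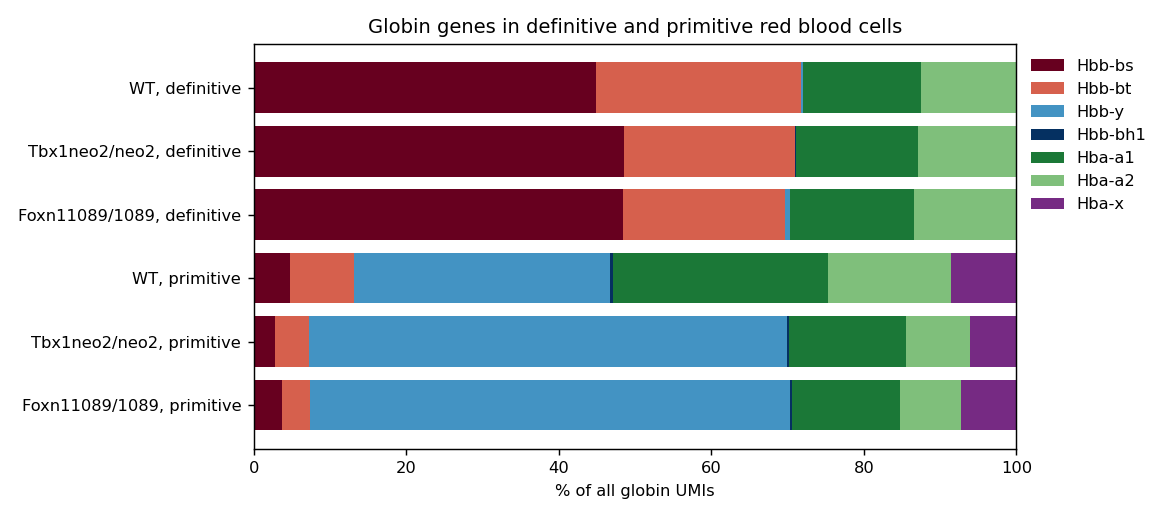
Share of each globin gene in all globin UMIs (x axis, percent) for the definitive and primitive cells of each library, as stacked bars. *Hbb-bs* fills 44.8%, 48.6% and 48.4% of the definitive bars, and *Hbb-y* is shorter in WT primitive cells (33.6%) than in the other primitive bars.

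Definitive cells were next compared with primitive cells over the genes outside the rule. UMIs were summed per class and library without the globins, levels are CPM, and edgeR's quasi-likelihood test with the library as a block compared the 3 definitive with the 3 primitive sums. Fold changes are log2 definitive over primitive, with the standard error of the fit, and p-values are adjusted by Benjamini-Hochberg over all genes tested. Since each pair of sums shares a library and the libraries differ in genotype, the 3 pairs are not replicates of 1 condition. The p-values rest on a spread taken from the trend over all genes, not on each gene's own spread between these libraries. Of 6257 genes with enough UMIs, 750 (12.0%) were higher and 1033 (16.5%) lower in definitive cells, at a median log2 of 0.03 over all genes. The counts of each gene list below are to be set against these shares. With globins left in the totals the median moved to -0.49 and the calls to 344 higher and 1658 lower, so directions below are relative to the non-globin RNA. Of the calls, 93.9% and 92.7% went the same way in each library. This follows at least in part from calling them on the same pairs, and is no separate check. The WT library stood apart as described, and without it 678 genes were higher and 964 lower.

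Relative to the non-globin RNA, most genes of heme synthesis were higher. Of 11 genes tested, 7 were higher and 4 lower, with a median log2 of 0.73. Of all genes 12.0% were higher and 16.5% lower. With globins in the totals 5 heme genes were higher and 4 lower, at a median log2 of 0.16. Without cells of mixed globin 5 were higher and 4 lower. *Alas2*, the erythroid enzyme of the first step, stood at 12598, 16671 and 12584 CPM in definitive cells and 3552, 3879 and 2901 in primitive cells. The groups did not overlap, and the log2 was 2.05 ± 0.13 (SE; edgeR adjusted p = 7.8e-50). *Urod* (2.26 ± 0.17), which makes coproporphyrinogen, *Fech* (2.10 ± 0.14), which inserts the iron, and *Alad* (1.94 ± 0.20) rose by a similar amount, and *Ppox* (1.48 ± 0.25) and *Cpox* (0.73 ± 0.24) by less. The 4 lower genes were *Uros* (-1.25 ± 0.33) and 3 mitochondrial membrane proteins: *Slc25a38*, the glycine carrier (-1.74 ± 0.44), *Abcb10* (-2.49 ± 0.26) and *Tmem14c* (-1.14 ± 0.25).

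Iron handling split by step. *Slc25a37*, or mitoferrin-1, which carries iron into mitochondria, rose from 294, 598 and 415 CPM to 3551, 3189 and 3474 (3.02 ± 0.15), without overlap. *Iscu* (2.85 ± 0.20) and *Glrx5* (1.33 ± 0.14), both needed to build iron-sulfur clusters, rose as well, and *Snx3* by less (0.48 ± 0.16). The ferritin heavy chain *Fth1* fell by 1.16 on the log2 scale, with 47415, 38029 and 45320 CPM against 100740, 86212 and 112464, but turned to 0.30 without passing when cells of mixed globin were left out, while the light chain *Ftl1* did not pass the test (-0.16 ± 0.12, adjusted p = 0.38). *Slc40a1*, the iron exporter ferroportin, fell by 2.79. *Tfrc*, the transferrin receptor of younger erythroblasts, was low in both classes, with 10.5, 89.4 and 69.7 CPM in definitive cells and 46.9, 97.3 and 49.6 in primitive cells (adjusted p = 0.84). Of 10 iron genes tested, 4 were higher and 2 lower, where 12.0% of all genes were higher and 16.5% lower.

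Membrane and skeleton genes moved in both directions, with 10 of 21 higher and 6 lower. With globins in the totals 6 were higher and 6 lower. *Slc2a1*, the glucose transporter GLUT1, stood at 158, 781 and 249 against 25.6, 14.6 and 17.7 CPM (4.22 ± 0.26). It was highest in the library labelled Tbx1neo2/neo2. *Cd47*, the signal that restrains phagocytes, rose by 3.65 ± 0.24, *Cd24a* by 2.56 ± 0.15 and the skeletal protein 4.1 gene *Epb41* by 1.68 ± 0.15. *Mpp1*, a palmitoylated scaffold that binds protein 4.1, rose from 25.6, 17.0 and 28.8 to 852, 1496 and 1134 CPM (5.54 ± 0.22).

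The anion exchanger *Slc4a1* (band 3) differed little, at 1147, 1821 and 831 CPM against 887, 1299 and 683 (0.42 ± 0.15, adjusted p = 0.018). With globins in the totals its direction turned to -0.21 and did not pass. *Sptb* and *Ank1*, spectrin beta and ankyrin, rose by 1.12 ± 0.27 and 1.01 ± 0.32. *Epb42* (-0.61 ± 0.21), *Add1* (-0.83 ± 0.24), *Add2* (-1.69 ± 0.28), *Gypc* (-1.56 ± 0.33), *Kel* (-0.83 ± 0.20) and *Ermap* (-1.60 ± 0.23) fell.

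The share of cells with a UMI was compared after every cell was thinned to 400 non-globin UMIs, which left out 17 definitive cells of the Foxn11089/1089 library and 1 primitive cell in each. *Alas2* was then seen in 98.7%, 99.6% and 98.1% of definitive cells against 71.4%, 73.3% and 67.9% of primitive cells. In the remaining cells, which should lack it, *Alas2* reached at most 0.864%. *Slc4a1* was seen in 31.0%, 37.2% and 20.8% of definitive cells against 37.9%, 39.2% and 25.2% of primitive cells. This order was opposite to that of its CPM, and the intervals of the classes overlapped in each library. *Epb42* was seen in 4.43%, 1.65% and 3.44% of definitive cells against 7.69%, 9.17% and 7.03% of primitive cells. Without thinning, *Alas2* was seen in 99.4%, 100% and 99.3% of definitive cells, at median depths of 834, 1648 and 945 non-globin UMIs, and in 96.2%, 95.04% and 96.8% of primitive cells, at 1026, 3162 and 1988. The marker *Alas2*, which took no part in the rule, thus went with the label of red blood cells.

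*Malat1*, a long non-coding RNA that stays in the nucleus, was lower in definitive cells. It had 4571, 3526 and 4340 CPM in definitive cells and 85697, 76832 and 57214 in primitive cells (-4.10 ± 0.14, adjusted p = 6.1e-174). No UMI of it was seen in 89 of 158, 131 of 242 and 683 of 1065 definitive cells, against 3, 1 and 14 primitive cells. After thinning it was seen in 31.6%, 21.1% and 20.5% of definitive cells, 97.3%, 100% and 97.3% of primitive cells, and 68.3%, 65.7% and 68.2% of the remaining cells. The nuclear RNAs *Neat1* (-3.12 ± 0.20) and *Kcnq1ot1* (-1.14 ± 0.30) fell as well, and *Meg3* did not pass (-0.55 ± 0.23, adjusted p = 0.061). Its direction turned to 0.93, past the threshold, once likely doublets were left out. A minority of 7, 6 and 28 definitive cells had over 2% of their non-globin UMIs on *Malat1*.

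**Figure D3:**
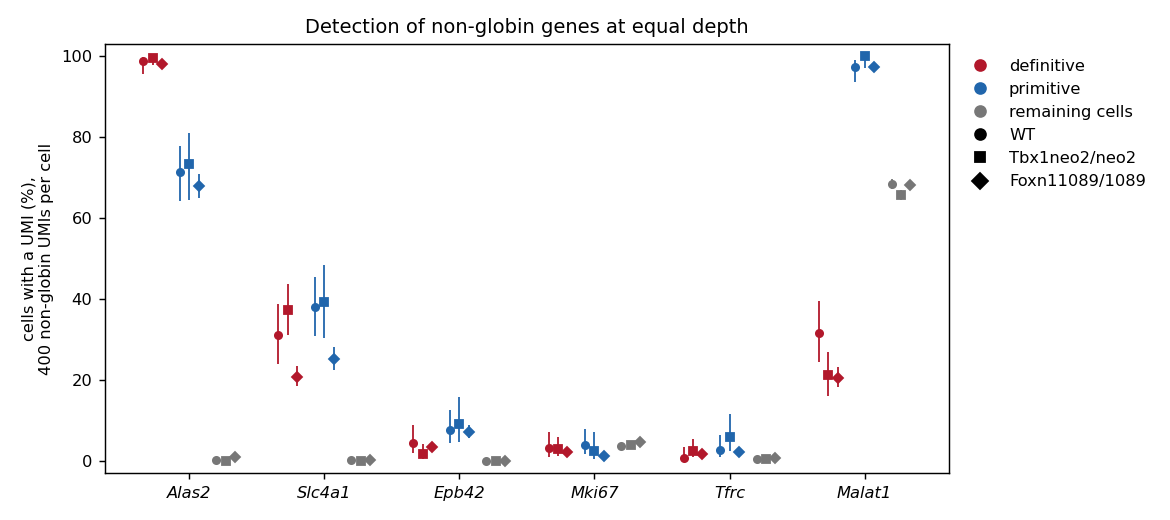
Share of cells with at least 1 UMI of each gene (y axis, percent) after thinning to 400 non-globin UMIs per cell, with 95% exact binomial intervals as bars, for definitive (red), primitive (blue) and remaining cells (grey), and 1 symbol per library. *Alas2* is higher and *Malat1* lower in definitive than in primitive cells of each library, while *Mki67* and *Tfrc* lie under 6% in every class.

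Erythroid transcription factors diverged. Of 15 tested, 6 were higher and 4 lower, at a median log2 of 0.03. *Lmo2*, the adaptor of the TAL1 and GATA1 complex, stood at 200, 538 and 405 CPM in definitive cells and at 0, 9.73 and 8.42 in primitive cells (5.73 ± 0.30). Its partner *Tal1* went the other way, at 15.8, 44.7 and 28.4 against 678, 854 and 664 (-4.48 ± 0.23). *Gfi1b*, a transcriptional repressor that acts within the erythroid and megakaryocyte lineages, had 0, 0 and 1.62 CPM in definitive cells. In primitive cells it had 38.4, 55.9 and 71.8 CPM (-5.74 ± 0.60). In each of these 3 genes the classes did not overlap.

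*E2f2* (3.67 ± 0.31) and *E2f4* (1.82 ± 0.38), which act on the erythroid cell cycle, *Trim10* (2.30 ± 0.17), *Hemgn* (1.65 ± 0.29) and *Foxo3* (1.04 ± 0.21) were higher. *Klf13* (-1.79 ± 0.46) and *Klf3* (-0.59 ± 0.22) were lower. The master regulators *Gata1* (-0.71 ± 0.38, adjusted p = 0.17) and *Klf1* (0.62 ± 0.27, adjusted p = 0.067) did not pass, at 17.8 to 21.3 and 63.8 to 105 CPM in definitive cells.

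Of the factors known for switching from embryonic or fetal to adult globin, *Sox6* stood out. This repressor of *Hbb-y* in definitive cells had 26.3, 76.6 and 57.6 CPM there and 0, 4.86 and 0 in primitive cells (6.05 ± 0.60, adjusted p = 1.8e-22), without overlap. *Bcl11a*, another repressor of embryonic globin, did not pass at its low level (0.71 ± 0.44, adjusted p = 0.24), with 42.1, 21.3 and 17.8 against 12.8, 4.86 and 16.8 CPM. *Zbtb7a* fell by 1.23. Of 7 tested, 1 rose and 1 fell, near the 12.0% higher and 16.5% lower of all genes. Among genes of early erythroid progenitors, 3 of 9 had enough UMIs to test, and *Kit* and *Gata2* were not among them. *Epor*, the erythropoietin receptor, was the only 1 to pass (-1.37 ± 0.42).

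Of 13 tested genes of gas transport and defence against oxidation, 9 were higher and 1 lower, at a median log2 of 0.93. The higher genes were 4 without cells of mixed globin, 5 with globins in the totals (with 3 lower) and 6 without the library as a block. *Gpx1*, a glutathione peroxidase, had 42707, 25605 and 24740 CPM against 7999, 6734 and 5295 (2.22 ± 0.13). *Prdx2* (0.93 ± 0.13), *Cat* (0.73 ± 0.16) and the mitochondrial thioredoxin reductase *Txnrd2* (2.99 ± 0.19) rose as well, whereas *Sod1* fell by 1.36. *Bpgm*, which makes the 2,3-bisphosphoglycerate that lowers oxygen affinity, rose by 1.26 ± 0.13 with 4108, 11481 and 10889 CPM. *Car2*, a carbonic anhydrase, rose by 0.94 ± 0.13. Its relative *Car1* was seen only in definitive cells of these globin-rich cells, with 54 UMIs in all against 0, at least 27.6-fold higher with 3 counts over all primitive cells as the floor (adjusted p = 1.2e-13). The globin chaperone gene *Ahsp* was not analysed here.

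Of 20 tested genes of organelle clearance and ubiquitin, 16 were higher and 1 lower, at a median log2 of 1.16. The higher genes were 10 without cells of mixed globin and 10 with globins in the totals, with 1 lower in each. *Mkrn1*, a ubiquitin ligase, rose from 1147, 1121 and 1484 to 8637, 12588 and 11985 CPM (3.17 ± 0.14). *Gabarapl2*, an autophagosome protein, rose by 2.71 ± 0.15, and *Bnip3l* (NIX), the receptor that clears mitochondria from reticulocytes, by 1.04 ± 0.14. *Ube2o*, the ubiquitin enzyme that removes ribosomes from reticulocytes, rose from 166, 367 and 237 to 905, 1089 and 954 CPM. *Ubac1* (3.49 ± 0.22), the nuclear exporter *Xpo7* (2.78 ± 0.21) and *Fbxo7* (2.03 ± 0.31) also rose. *Ubb* was higher at 20809, 18886 and 20416 CPM (0.73 ± 0.13).

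The reads from mitochondrial genes did not fall with these genes. They held 2.67%, 9.11% and 7.17% of the non-globin UMIs of definitive cells, 1.18%, 3.53% and 2.29% of those of primitive cells and 2.82%, 6.01% and 5.64% of those of the remaining cells. The share was higher in definitive than in primitive cells of each library. Genes of cytosolic ribosomal proteins held 14.7%, 11.4% and 12.5% of the non-globin UMIs of definitive cells and 17.8%, 18.5% and 18.0% of those of primitive cells. Among genes of translation, *Pabpc1* (1.69 ± 0.14) and the heme-regulated kinase *Eif2ak1* (1.49 ± 0.22) rose and *Eif4ebp1* (-2.99 ± 0.27), *Eef1a1* (-0.96 ± 0.14) and *Eef2* (-0.65 ± 0.17) fell, 2 higher and 3 lower of 6.

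Cell cycle genes were uneven. *Ube2c*, the ubiquitin enzyme of the anaphase-promoting complex, had 2635, 2921 and 3619 CPM in definitive cells and 59.7, 48.6 and 108 in primitive cells (5.38 ± 0.19), and *Nusap1*, a spindle protein, had 579, 879 and 857 against 8.53, 19.5 and 34.1 (4.99 ± 0.23). The groups did not overlap in either gene. Of the other genes of the list, *Hmgb2* had 279, 228 and 375 CPM in definitive cells and all others less, and *Mki67*, the usual mark of cycling cells, stood at 78.9, 48.9 and 90 against 51.2, 60.8 and 32.4 CPM (0.84 ± 0.28, adjusted p = 0.011). It went down in the library labelled Tbx1neo2/neo2 and up in the others. After thinning, *Mki67* was seen in 3.16%, 2.89% and 2.19% of definitive cells and 3.85%, 2.5% and 1.12% of primitive cells. In WT and in the library labelled Tbx1neo2/neo2 this order of the classes was opposite to that of the CPM. The remaining cells had 3.58%, 3.80% and 4.62%. Of 15 G2 and M genes 7 were higher and none lower, and of 13 S phase genes 3 were higher (*Rrm2* 2.64 ± 0.27, *Tyms* 1.82 ± 0.30 and *Dut* 0.98 ± 0.26) and none lower. Of all genes 12.0% were higher and 16.5% lower. By DESeq2 3 genes of each list were higher, and with globins in the totals 2 of each, again with none lower.

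Histone and glycolysis genes moved in both directions, and of those that passed *Hist1h1c* and *Hk1* moved most. Of 8 histone genes, *Hist1h1c* (2.10 ± 0.23), *H3f3a* (0.75 ± 0.13) and *Hist1h2bc* (0.51 ± 0.18) were higher and *H3f3b* (-0.39 ± 0.15) lower. Of 13 glycolysis genes, *Pgam1* (0.62 ± 0.23) and *Ldha* (0.62 ± 0.21) were higher and *Hk1* (-2.04 ± 0.43), *Aldoa* (-0.48 ± 0.17) and *Gapdh* (-0.48 ± 0.14) lower. The glycolysis counts were near the 12.0% higher and 16.5% lower of all genes, and the median log2 of that list was -0.0005. DESeq2 called 0 glycolysis genes higher and 2 lower. *Gapdh* turned to 0.26, not past the threshold, when cells of mixed globin were left out. With globins in the totals *Snx3*, *Blvrb*, *Map1lc3b*, *Fam46c*, *Hist1h2bc* and *Col3a1* turned to between -0.01 and -0.21 and did not pass.

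**Figure D4:**
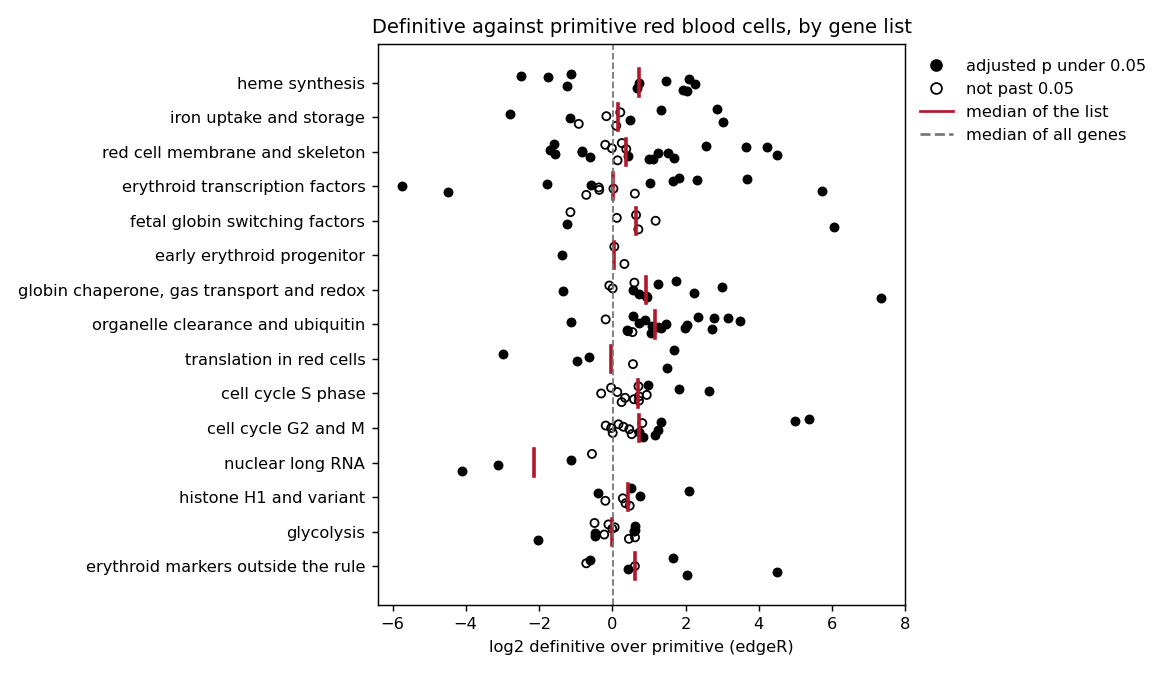
Log2 definitive over primitive from edgeR (x axis) for every tested gene of the 15 lists (y axis), filled where the adjusted p was under 0.05, with the median of each list as a red line and of all genes as a dashed line at 0.03. Organelle clearance and ubiquitin lies to the right (median 1.16) and nuclear long RNA to the left (median -2.13). The point farthest right is *Car1*, whose fitted value depends on a primitive count of 0.

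By size alone, the 10 largest rises among genes with at least 100 UMIs and 1 direction in all libraries included *Isg20*, *Sowaha*, *Pla2g16*, *Sox6*, AI662270, *Lmo2*, *Mpp1* and *Ube2c*. The phospholipase gene *Pla2g16* had 489, 538 and 720 against 8.53, 0 and 12.9 (6.07 ± 0.27). *Isg20*, an exonuclease gene, had 47.3, 29.8 and 76.2 against 0, 0 and 0.443, so that 1 UMI in all primitive cells carried the comparison. In all 10 genes the lowest definitive library lay above the highest primitive library, which follows largely from choosing them by size and 1 direction.

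The 10 largest falls were *Cmpk2*, *Trib3*, *Lmx1a*, *Fam174b*, *Fads2*, *Tnfrsf23*, *Gfi1b*, *Cited4*, *Pdzk1ip1* and *Gm16062*. *Pdzk1ip1*, a small membrane protein gene, had 31.6, 25.5 and 66.5 CPM in definitive cells and 1467, 1547 and 2429 in primitive cells (-5.39 ± 0.21). *Fam174b* had 10.5, 4.26 and 7.30 against 362, 873 and 583 (-6.44 ± 0.30). *Trib3*, a stress-induced pseudokinase gene, had 0, 0 and 1.62 against 76.8, 221 and 227 (-7.43 ± 0.48), and *Lmx1a*, a LIM homeobox factor gene, had 0, 0 and 1.62 against 93.8, 173 and 122 (-6.74 ± 0.50). *Cmpk2* had no UMI in any definitive cell against 128 in primitive cells, at least 27.8-fold lower with 3 counts over all definitive cells as the floor. In all 10 genes the highest definitive library lay below the lowest primitive library, which again follows largely from that choice.

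Markers of other cell types were present in definitive cells, in most lists below their level in the remaining cells. The 6 epithelial markers summed to 763, 202 and 272 CPM in definitive cells, against 1931, 1518 and 1348 in the remaining cells, and the 6 mesenchymal markers to 189, 670 and 604, against 1112, 3078 and 1726. Macrophage markers summed to 10.5, 181 and 32.4 CPM in definitive cells, 34.1, 12.2 and 16.4 in primitive cells and 74.8, 129 and 106 in the remaining cells, so the library labelled Tbx1neo2/neo2 had more of them in definitive than in remaining cells. *C1qa*, *C1qb* and *C1qc* passed the test in definitive cells (log2 1.48, 1.47 and 2.45). The rise rested on the library labelled Tbx1neo2/neo2, without which *C1qb* had a log2 of 0.39 (edgeR adjusted p = 0.77). *Mrc1*, *C1qa*, *Adgre1* and *Csf1r* were at 0 in the WT definitive cells. Lymphoid markers summed to 216, 29.8 and 25.9 CPM, against 541, 329 and 112 in the remaining cells, and endothelial markers to 21.0, 14.9 and 22.7, against 83.5, 143 and 124, with *Pecam1* lower (-2.29). Megakaryocyte markers summed to 5.26, 8.51 and 47.8 CPM against 27.8, 48.6 and 35.2, so that they too were above the remaining cells in 1 library, Foxn11089/1089. Of these lists, 5 genes were higher and 1 lower of 18 tested, the others being *Col3a1* (0.58) and *Coro1a* (1.62). The part of RNA from other cells in the results above was not tested. Without cells of at least 5000 non-globin UMIs, a setting added after the counts had been seen, 961 genes were higher and 1141 lower, and they included 93.1% and 95.1% of the calls above.

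Definitive cells were last compared between genotypes, on the same scale. With 1 library each, a gene with at least 100 UMIs over both libraries was called when its ratio was at least 2-fold and the exact conditional binomial 95% interval lay on 1 side of no difference, and no test was run. Of 568 genes, 84 (14.8%) were higher and 28 (4.93%) lower in the library labelled Tbx1neo2/neo2 than in WT. Of 1090 genes, 134 (12.3%) were higher and 30 (2.75%) lower in the Foxn11089/1089 library than in WT. Of 1240 genes, 90 (7.26%) were higher and 39 (3.15%) lower in the Foxn11089/1089 library than in the library labelled Tbx1neo2/neo2. The median log2 ratio of all genes was 0.12, 0.15 and 0.14. Relative to these medians the calls were 68 and 46, 96 and 44, and 57 and 69, so that the balance of the last comparison turned. The comparisons share libraries.

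Most genes called in definitive cells had a ratio on the same side of 1 in the rest of their library, at a smaller size. The smaller size follows at least in part from choosing the genes by their ratio in definitive cells. Of the 84 genes higher in the library labelled Tbx1neo2/neo2, 81 had a ratio above 1 in the remaining cells too and 77 in primitive cells, where 42.8% of all 568 genes had one above 1 in the remaining cells. All 28 lower genes had a ratio below 1 there, against 57.2% of all genes. At least 2-fold in the remaining cells were 36 of the 84 and 13 of the 28, against 9.51% and 6.51% of all genes. Of the 134 genes higher in the Foxn11089/1089 library than in WT, 123 had a ratio above 1 in the remaining cells. The share of all genes was 50.2%. At least 2-fold higher there were 55 of the 134, against 9.72% of all genes. In the comparison of the mutant libraries, 75 of 90 higher and 29 of 39 lower genes lay on the same side. The shares of all genes were 57.5% and 42.4%. Past 2-fold in the remaining cells were 8 of the 90 and 2 of the 39, against 2.5% and 1.45% of all genes. Whether these differences belong to the genotype or to the preparation of the library cannot be told apart.

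Of 11 mitochondrial genes, 9 were higher in the library labelled Tbx1neo2/neo2 than in WT, and 7 of 12 in the Foxn11089/1089 library. The shares of all genes were 14.8% and 12.3%. *mt-Co3*, a subunit of cytochrome oxidase, had 20441 CPM against 3246 (log2 2.65, 2.54 to 2.77), and its log2 was 2.65 in primitive cells and 2.46 in the remaining cells. *mt-Nd3* (3.61) and *mt-Nd2* (2.73) were higher as well. On the other side stood *Gm42418* (-5.85, -5.98 to -5.73), AY036118 (-5.40) and *Lars2* (-7.15), which were also lower in the Foxn11089/1089 library than in WT (-5.69, -4.32 and -6.17). Each of these 3 was lower in the remaining cells as well, by 3.43 to 4.72 on the log2 scale in the first comparison. Ribosomal protein genes were called in 2 higher and 8 lower of 75 in the first comparison, and in 3 higher and 1 lower of 76 in the second. Of all genes 14.8% were higher and 4.93% lower in the first, and 12.3% and 2.75% in the second.

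Among the erythroid lists, the library labelled Tbx1neo2/neo2 had more called genes against WT than the Foxn11089/1089 library did, and the difference between them was not tested. Its 4 membrane genes of 12 tested were *Slc2a1*, *Rhag*, *Epb42* and *Cd24a*, its translation genes *Eef2*, *Pabpc1* and *Eif2ak1* (3 of 4), and its ubiquitin genes (3 of 15) included *Fbxo9* and *Ube2l6*, all higher. Of all genes 14.8% were higher in that comparison, and the share of the ubiquitin genes was near this. *Fech* (1 of 6 heme genes) was higher too, a share again near that of all genes. Also higher were *Lmo2* and *Trim10* (2 of 4 transcription factors) and *Bpgm* and *Car2* (2 of 9 gas transport and redox genes). Of 5 histone genes *Hist1h1c* was higher, while *Hist1h2bc*, *H2afz* and *H3f3b* were lower, against 4.93% lower of all genes. *Tmcc2* was higher at 2151 against 300 CPM (2.84, 2.46 to 3.25), but 61 of 242 cells held all of its 1011 UMIs and 1 cell held 151. In the Foxn11089/1089 library against WT, *Lmo2* (1 of 6 tested in its list), *Bpgm* (1 of 11) and *Fbxo9* (among 2 of 15) were higher. Each of these shares was near the 12.3% of all genes called higher. *Eef2* and *Eef1a1* (2 of 5), *Rrm2* (1 of 3), *Hist1h1c* (1 of 6) and *Pgam1* (1 of 8) were higher as well. The shares for *Hist1h1c* and *Pgam1* were near 12.3% too. No gene was called of 15 membrane and 7 heme genes tested, where 12.3% of all genes were higher and 2.75% lower. Directly compared with the library labelled Tbx1neo2/neo2, the Foxn11089/1089 library was lower in *Slc2a1*, *Slc4a1*, *Rhag* and *Tmod1* (4 of 16 membrane genes). It was also lower in *Fech* (1 of 8), *Xpo7* (1 of 16) and *Pabpc1* (1 of 5), against 3.15% of all genes. Of 6 histone genes *H3f3b*, *H2afv* and *H2afz* were higher in it, against 7.26% of all genes.

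Some of the largest ratios rested on single cells. *Apoe* was 6.21 higher on the log2 scale in the library labelled Tbx1neo2/neo2 than in WT, with 183 UMIs against 1, and 1 cell held 165 of the 183. *Cd74*, the invariant chain of antigen-presenting cells, had 124 UMIs in WT definitive cells against 2 and 4, and 1 cell held 109 of the 124. *Cst3* likewise had 99 UMIs in WT, 80 of them in 1 cell. Without cells of at least 5000 non-globin UMIs, 4 *Cd74* UMIs and 1 *Cst3* UMI were left in WT, and the 183 *Apoe* UMIs stayed. *Isg15*, an interferon-induced gene, had 54, 115 and 48 UMIs, and 1 cell held 41 in WT and 63 in the library labelled Tbx1neo2/neo2.

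Others were spread over many cells. *Gm16867* had 134 UMIs in 77 of 158 WT definitive cells and 374 in 151 of 242 cells of the library labelled Tbx1neo2/neo2, or 705 and 796 CPM. It had none in 1065 definitive cells of the Foxn11089/1089 library, at least 290-fold below WT with 3 counts in that library as the floor. Its levels in primitive cells were 196, 136 and 0.443 CPM, and in the remaining cells 5.70, 2.78 and 0, so it was absent from nearly every count of that library. *Pth*, the parathyroid hormone gene, had 757 UMIs in 486 of 1065 definitive cells of the Foxn11089/1089 library, 9 in WT and 0 in the library labelled Tbx1neo2/neo2, and *Chga* had 239, 5 and 0. Both had the same order in the remaining cells, at 3585, 305 and 1.13 CPM for *Pth* and 1127, 116 and 1.92 for *Chga*. Other names that the rule gave were *Gstm1*, *Gpc3* and *Khdrbs3* for the Foxn11089/1089 library over WT, and *Gstm1*, *Mdk* and *Sfn* higher and *Gapvd1* lower in it than in the library labelled Tbx1neo2/neo2.

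**Figure D5:**
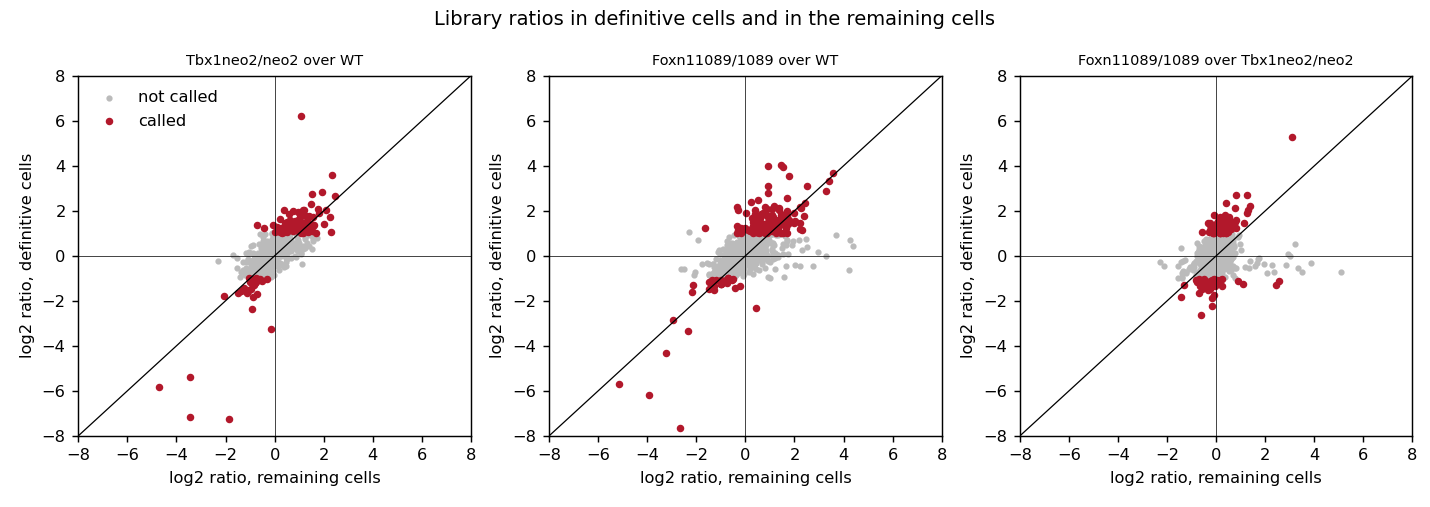
Log2 ratio between 2 libraries in definitive cells (y axis) against the same ratio in the cells that were not globin-rich (x axis), 1 point per gene with UMIs in both libraries and both cell groups and 1 panel per comparison, with called genes in red and a line of equal ratios. In the first panel the higher genes lie in the upper right, where 81 of 84 have a ratio above 1 in both, and *Cd74* (-7.26) and *Lars2* (-7.15) lie lowest.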

How the data were processed

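Single-cell RNA sequencing libraries (10x Genomics) of thymic lobes, 1 per genotype, were processed by the authors with Cell Ranger 3.0.0 on mm10 and analysed in Seurat, per the submitters' processing notes. The values used here are the raw UMI counts per gene and barcode that the authors deposited, without normalization. No value was normalized for length, and a gene's counts come from its 3′ end.

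Barcodes with at least 200 genes, at least 500 UMIs and under 20% mitochondrial UMIs were kept. Scrublet in scanpy 1.11.5 scored doublets, and the highest-scoring 0.8% of barcodes per 1000 recovered were marked and kept. Red blood cells were chosen by globin share as described. Genes with at least 30 UMIs over 6 sums entered edgeR 4.0.16 (R 4.3.3) with TMM on non-globin totals. Its estimate of the spread came from the trend over all genes, without a gene's own part. DESeq2 1.42.0 was an alternative. Low-count filters, normalization, cell filters, doublets and left-out libraries were the others. The pairs in the block are the libraries themselves. Shares have Clopper-Pearson, sums Poisson and ratios conditional binomial intervals. Named genes were the lists, the 10 highest and 10 lowest fold changes (same direction in all libraries, at least 100 UMIs) and the 5 highest and 5 lowest genotype ratios. Tent5c is named Fam46c in the files. Promoters matched 7 of 8 globin genes. Members and lists were chosen with earlier results of these data known. Scripts were tested on simulated data. Python 3.11.15, numpy 2.4.6, scipy 1.17.1 and pandas 2.3.3 were used. Some listed and named genes are counted but not reported here by name.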

Additional observations from a re-analysis of the deposited data

Results flagged for a closer look

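Barcodes outside the kept cells held further definitive-like counts. Those with fewer than 200 genes that met every other condition numbered 140 in WT, 19 in the library labelled Tbx1neo2/neo2 and 227 in the Foxn11089/1089 library. They were noticed because the report uses none of them.

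In 3 listed genes, 1 library went against another from primitive to definitive cells, each beyond its counting interval. *Col1a1*, a mesenchymal marker, had a log2 of -2.14 in WT, 1.77 in the library labelled Tbx1neo2/neo2 and 0.47 in the Foxn11089/1089 library. *Col1a2* had -2.70, 0.60 and 0.23. *H2afz*, a histone variant gene, had 0.33, -0.68 and -0.28. With 1 library per genotype, the difference between libraries was not tested.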

How the results depend on the processing

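Counting error, the single library per genotype and the 834 to 1648 non-globin UMIs of a median definitive cell limit what can be seen, and the causes of the changes below were not tested. All 20 named genes of the comparison with primitive cells kept their direction and call wherever tested (318 values). Leaving out cells of at least 5000 non-globin UMIs, and dropping the minimum of genes, were chosen after seeing the data. The share of definitive among globin-rich cells was 40.3%, 58.8% and 32.7% with minimums of 1000 UMIs and 400 genes, 98.7%, 77.6% and 62.9% without cells of mixed globin (which left few WT primitive cells), and 56.4% in WT and 56.6% in the Foxn11089/1089 library with no minimum of genes. The share of definitive among kept cells, whose alternatives were also chosen after seeing the data, was 0.589%, 3.68% and 3.95% with 1000 UMIs and 400 genes, 4.86% in WT and 10.8% in the Foxn11089/1089 library with no minimum of genes, and 9.64% in the latter without likely doublets. The zeta share in WT was 0.159% with 1000 UMIs and 400 genes, 0.160% at a globin share of 70%, 0.00834% without mixed cells, 0.152% with no minimum of genes and 0.281% with cells weighted equally. In the Foxn11089/1089 library it was 0.576% with 1000 UMIs and 400 genes, 0.0246% without mixed cells, 0.260% with no minimum of genes, 0.138% with equal weights, 0.161% without likely doublets and 0.264% without cells of 5000 UMIs. Against primitive cells, DESeq2 called 480 genes higher and 554 lower, and totals with globins gave 344 and 1658. With no replicate block, which drops the pairing by library, 412 and 637 were called, and the listed genes called fell to 5 and 3 for heme, 6 and 3 for membrane and 12 and 0 for organelle clearance. Leaving out 1 library gave 505 to 678 higher and 495 to 964 lower, the fewest without the Foxn11089/1089 library. In the library labelled Tbx1neo2/neo2 over WT, a minimum of 30 UMIs gave 191 higher and 122 lower. The lower genes were 62 with 1000 UMIs and 400 genes, 11 at 70% globin, 18 without doublets, 12 without cells of 5000 UMIs, 18 with all UMIs in the totals, 18 with equal weights and 46 relative to the median. For the Foxn11089/1089 library over WT, all UMIs in the totals gave 207 and 16, 30 UMIs gave 249 and 94, and the lower genes were 19 without doublets, 21 at 70% globin and 20 without cells of 5000 UMIs. For the Foxn11089/1089 library over the library labelled Tbx1neo2/neo2, the higher genes were 35 at 70% globin, 48 without doublets and 58 without cells of 5000 UMIs, and the lower genes 25 with 1000 UMIs and 400 genes and 20 without cells of 5000 UMIs. A minimum of 30 UMIs gave 324 and 113, and values relative to the median 57 and 69. Another 109 summary values kept their direction and stayed within 1.5 times or the counting interval.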

Other observations

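The 25 non-globin genes with the highest mean UMI level in definitive cells held 40.6%, 39.7% and 37.7% of the non-globin UMIs. The ferritin genes *Ftl1* (56089, 59421 and 69167 CPM) and *Fth1* led in 2 libraries, and *Gm42418* led in WT. *Oaz1*, which codes for antizyme, a brake on polyamine synthesis, had 12772, 11290 and 11758 CPM in definitive cells and 8430, 6668 and 7127 in primitive cells. *Sec61g*, a subunit of the protein translocon, had 8963, 11279 and 6936 CPM against 7424, 8750 and 5198. *Tpt1* had 3877, 10058 and 10819 CPM against 5663, 21980 and 20650. These 3 genes were chosen after their values were seen, and are given as values only.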
